A study of Mus musculus with 40 samples.

Results

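Hippocampal transcripts of 4 female mice labelled as lacking both genes for the histone variant H2A.Z (H2A.Z KO, mice 13, 14, 33 and 34) were compared with those of 3 female Myc-tag controls (Myc, mice 11, 31 and 32), taken from a series of 40 mice. Every gene whose counts reached a total of 20 over the 40 libraries was described, namely 28449 of 40853 genes. The H2A.Z KO mice received adeno-associated virus carrying Cre recombinase under the neuronal synapsin promoter (Syn-Cre), mixed with a vector for 3xMyc, p2A and GFP under a CMV promoter. The Myc mice received the 3xMyc vector mixed with saline and no Cre, so that both groups carried 3xMyc and GFP and had injections into the hippocampus of both hemispheres. The study describes its colony as floxed for H2az1 (H2A.Z.1, also H2afz) and H2az2 (H2A.Z.2, also H2afv), whereas GEO's labels give the genotype of the Myc mice as WT and that of the others as H2A.Z.1/H2A.Z.2 KD. The H2A.Z KO mice thus also received a second viral vector that the Myc mice did not. Deletion, Cre, the second vector and any difference in floxed alleles therefore cannot be told apart here. Mice recovered for 2 weeks before behavioural testing in the study, and neither their age nor whether the sequenced mice took those tests is given in the sources used here. The synapsin promoter limits Cre to neurons that took up virus, whereas total RNA came from all cells of the tissue. In bulk tissue, fewer cells of a type and less RNA per cell cannot be told apart, which holds for every value that follows.

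H2A.Z replaces canonical H2A in nucleosomes near promoters and enhancers. The SRCAP and p400/Tip60 complexes load it, and ANP32E and INO80 take part in its removal. In hippocampal neurons it is best known as a regulator of activity-dependent transcription and memory. Much of the response described here lies in innate immunity, where type I interferon binds its receptor, JAK kinases pass the signal on, and a complex that includes IRF9 binds interferon-stimulated response elements (ISREs) in promoters of antiviral genes.

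Such antiviral genes were higher in nearly every case, so a stretch of promoter is shown for 5 of them. An ISRE-like motif, GAAANNGAAA or TTTCNNTTTC on the gene's strand, was looked for in the 250 bases before each gene's start, where overlapping matches were allowed. It stood in 821 of 27025 mouse promoters (3.04%). Of 43 members of the interferon list with a promoter entry, 21 held it (48.8%), but only 43 of 60 members (71.7%) had an entry, under the 80% set as a minimum, so that the share for the list is void. The 5 genes are the list members of smallest p that hold the motif and were picked with their values in view. The windows of 60 bases are RefSeq sequence of GRCm38.p6, printed 5′ to 3′ on the strand of the gene, with complete motifs in capitals. They lie at chr5:120887614-120887673 (minus strand, Oas1g), chr19:34607778-34607837 (plus, Ifit3b), chr12:26456538-26456597 (minus, Rsad2), chr11:82951922-82951981 (plus, Slfn5) and chr8:71537562-71537621 (minus, Bst2).
Oas1g: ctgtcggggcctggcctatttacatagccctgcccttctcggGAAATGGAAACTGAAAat
Ifit3b: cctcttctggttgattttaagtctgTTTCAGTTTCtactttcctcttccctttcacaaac
Rsad2: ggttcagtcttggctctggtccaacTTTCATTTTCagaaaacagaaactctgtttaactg
Slfn5: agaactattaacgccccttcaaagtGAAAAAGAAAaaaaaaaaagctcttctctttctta
Bst2: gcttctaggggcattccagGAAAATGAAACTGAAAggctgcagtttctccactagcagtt
In the windows of Oas1g and Bst2 a pair of motifs overlaps, and those of Ifit3b and Rsad2 hold the reverse form. Rsad2, which encodes viperin, measured 3.94, 1.94 and 1.62 CPM in Myc mice 11, 31 and 32 and 34, 26.3, 28.4 and 55.3 CPM in H2A.Z KO mice 13, 14, 33 and 34 (log2 fold change 3.801 ± 0.44 (SE), adjusted p = 1.17e-07). CPM are counts per 1000000 counts of the TMM-scaled library total, values per mouse are always given in this order, and adjusted p-values are from edgeR's quasi-likelihood test over all genes tested. Bst2, which encodes tetherin, an anchor that holds virions on the cell surface, measured 9.66, 4.47 and 4.3 CPM in the Myc mice and 79.8, 72.7, 80.7 and 128 CPM in the H2A.Z KO mice. For both genes each H2A.Z KO mouse lay far above each Myc mouse, and mouse 34 was the highest. Oas1g (57.2-fold), Ifit3b (10.6-fold) and Slfn5 (5.57-fold) were higher in the same way, although Oas1g and Ifit3b have close paralogs among which reads can be split. Oas1g had only 12 counts over the Myc group, so that the size of its fold is uncertain (log2 fold change 5.84 ± 0.67 (SE)).

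The targeted genes were examined next. H2az1, at chr3:137570072-137572690 of GRCm39, measured 34.5, 34.1 and 28.1 CPM in the Myc mice and 28.1, 29.2, 30.3 and 36.3 CPM in the H2A.Z KO mice, so that the groups overlapped (log2 fold change -0.06 ± 0.17 (SE), adjusted p = 0.828). With library totals alone as the scale its difference turned to 0.10 ± 0.18 (adjusted p = 0.712). H2az2, at chr11:6371231-6394481, measured 24.2, 26 and 19.4 CPM in the Myc mice and 28.3, 29.97, 26.2 and 28 CPM in the H2A.Z KO mice, all above the Myc mice (log2 fold change 0.28 ± 0.12 (SE), adjusted p = 0.0609). With all mice kept H2az2 passed the threshold with DESeq2 (adjusted p = 0.0332), with DESeq2 size factors in edgeR (adjusted p = 0.0421) and with library totals alone (adjusted p = 0.00947). It also passed without Myc mouse 31 (adjusted p = 0.0334) and without H2A.Z KO mouse 33 (adjusted p = 0.0496), each time in the direction of more transcript. Counts per gene over the whole tissue in these libraries therefore do not show a loss of either transcript. H2A.Z KO stands throughout for the mice labelled KD. Reads on exons that Cre leaves in place, and reads from cells without Cre, still count here. Among the other H2A variants, Macroh2a2 fell from 8.21, 12.7 and 10.2 CPM to 6.09, 6.67, 7.28 and 7.14 CPM, without overlap (log2 fold change -0.61 ± 0.13 (SE), adjusted p = 0.000464), whereas Macroh2a1 (log2 fold change 0.07, adjusted p = 0.445) and H2aj (0.17, adjusted p = 0.337) did not pass. H2ax was not among the genes tested, so no value is given for it.

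Of 29 genes for loading, removing or reading H2A.Z, 1 rose and 7 fell (median log2 fold change -0.06). Anp32e, which encodes a chaperone that strips H2A.Z from nucleosomes, rose from 161, 164 and 156 CPM to 198, 199, 185 and 196 CPM (log2 fold change 0.28 ± 0.0634 (SE), adjusted p = 0.000724). Kat5, the Tip60 acetyltransferase that modifies H2A.Z, fell from 52.3, 62.2 and 50.9 CPM to 38.7, 41.7, 40.9 and 46 CPM (log2 fold change -0.40 ± 0.0697 (SE), adjusted p = 2.5e-05). Neither gene's groups overlapped, and both differences were small next to those of the antiviral genes. Actl6b, the neuronal form of a subunit of chromatin remodelling complexes, fell by more (log2 fold change -0.73, adjusted p = 1.71e-05). With library totals alone 29 members gave 7 higher and 2 lower, so the balance of this list depends on the scale.

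The groups differed over a large part of the transcriptome. At an adjusted p under 0.05, 5147 genes (18.1% of 28449) were higher and 4695 (16.5%) were lower in H2A.Z KO mice, and these shares are the background against which each gene group below is to be read. Among the 16122 genes with a mean of at least 1 CPM 24.7% were higher and 25% lower. The shares lower among the H2A.Z machinery, the clustered protocadherins and the nuclear and mitochondrial genes of the respiratory chain lie close to or under that 25%. The shares higher among adult neurogenesis genes and histones lie close to that 24.7%. Those of the dentate (15.4%), striatum (10%), pineal and photoreceptor (22.2%) and proteasome (2.94%) lists lie under it. Under the 25% lie the shares lower in the striatum (20%), pineal and photoreceptor (11.1%) and proteasome (5.88%) lists. Past a log2 fold change of 1, which was the fold cutoff for DEGs, 3155 genes were higher (11.1%) and 1112 lower (3.91%). The sizes were unequal, with a median log2 fold change of 1.35 among higher genes (quartiles 0.69 and 2.60) and -0.55 among lower genes (quartiles -0.96 and -0.38). The median over all genes was 0.003. With library totals alone in place of TMM that median moved to 0.17, and 6518 genes were then higher and 2576 lower. Every H2A.Z KO mouse lay above every Myc mouse for 5342 genes (18.8%) and below for 4674 genes (16.4%), which included 4410 of the 5147 higher and 3759 of the 4695 lower genes. Predicted loci without a proper symbol supplied 770 of the higher and 1050 of the lower genes, out of 10144 tested. Of the higher genes 269 had no count in any Myc mouse, and 47 of the lower genes had none in any H2A.Z KO mouse.

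**Figure D1:**
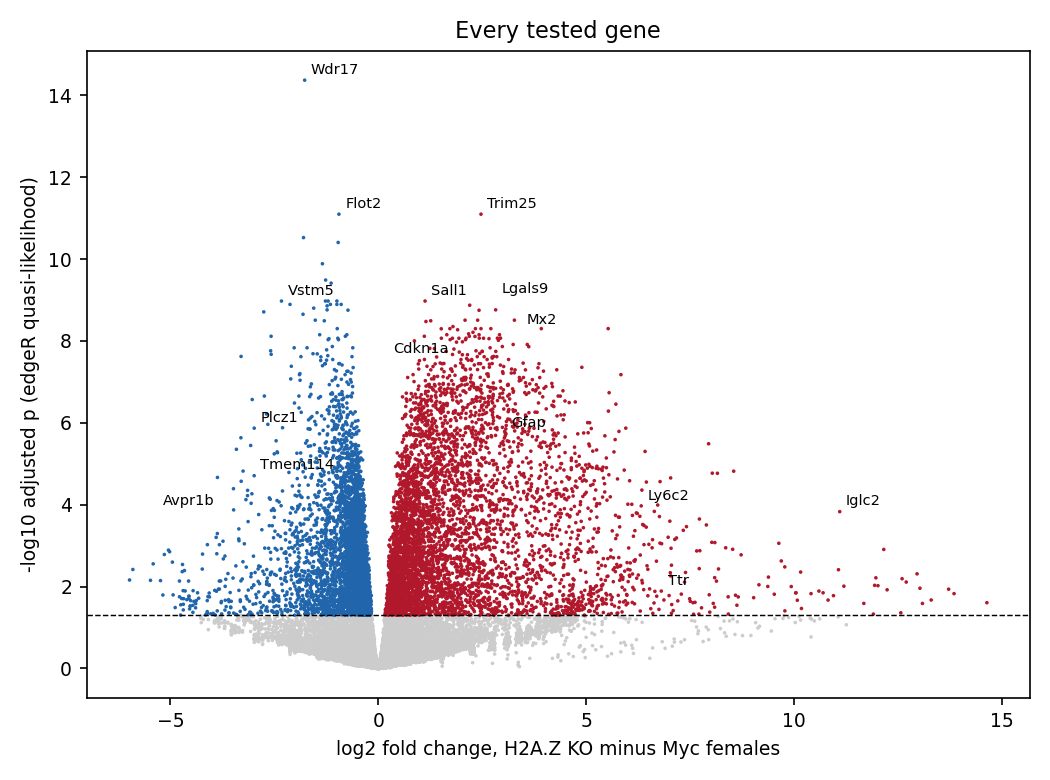
Difference between H2A.Z KO and Myc females as log2 fold change (x axis) against -log10 of the adjusted p (y axis) for all 28449 genes, with genes past the threshold coloured by direction. The 5147 higher genes reach farther from 0 than the 4695 lower genes.

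Total counts were 26683636 to 42788522 in the Myc libraries and 31547523 to 42928073 in the H2A.Z KO libraries. The library of Myc mouse 32 stood apart. A set of 9 ribosomal and other short non-coding RNAs, picked after seeing the counts, took 12.4% of its counts, against 1.15% and 1.24% in Myc mice 11 and 31, 0.679% to 0.976% in the H2A.Z KO mice and 0.97% to 2.8% in the other libraries of the series. Without mouse 32, 665 genes were lower past a log2 fold change of 1 in place of 1112. No library repeated another, since the counts of any pair within a group differed beyond counting error, with chi-square divided by its degrees of freedom never under 23.2. The H2A.Z KO mice varied in the size of the response, with median log2 changes against the Myc mean over the 5147 higher genes of 1.33, 1.26, 0.83 and 0.96 for mice 13, 14, 33 and 34, and over the 4695 lower genes of -0.71, -0.63, -0.39 and -0.42. Sample numbers put mice 11, 13 and 14 in the range 1 to 20 and the others in the range 21 to 40. Within the first range 5143 of the higher genes lay above and 4607 of the lower genes below the Myc mouse, and against the Myc mean the second 5133 and 4687 did. These counts are descriptions, since the same mice chose the genes. As a check of sex and dissection, Xist measured 489, 256 and 465 CPM in the Myc mice and 476, 408, 439 and 387 CPM in the H2A.Z KO mice, and the pituitary hormone gene Prl was at or under 0.213 CPM in all 7 mice. Without Myc mouse 31, which had the lowest Xist, the log2 difference of Xist was -0.16 ± 0.26 in place of 0.08 ± 0.24, and neither value passed.

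**Figure D2:**
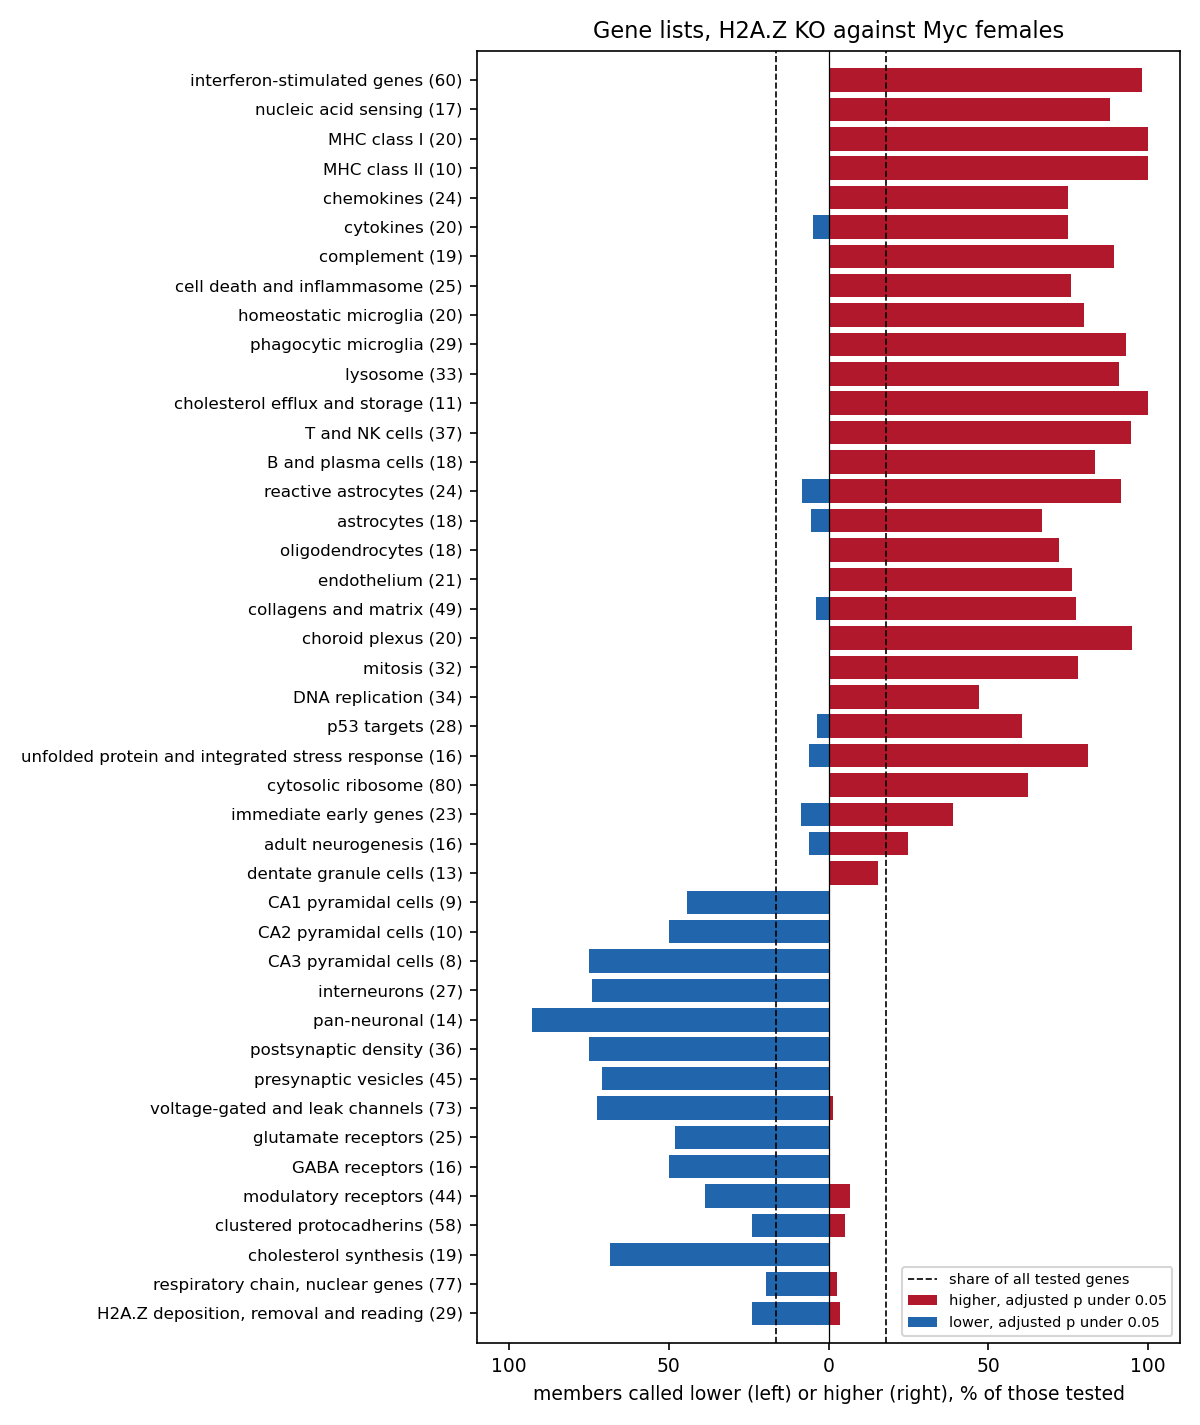
Share of the tested members (x axis, percent) of each gene list that were higher or lower in H2A.Z KO females at an adjusted p under 0.05, beside the shares over all 28449 genes (18.1% higher, 16.5% lower). Lists of immune and glial genes lie on the higher side and lists of neuronal and synaptic genes on the lower side.

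Interferon-stimulated genes rose almost without exception. Of 60 members 59 were higher and none lower, with a median log2 fold change of 3.82, and in 59 of them the groups were apart. The summed level of the list was 736, 505 and 458 CPM in the Myc mice and 4567, 4280.4, 4214 and 9197 CPM in the H2A.Z KO mice. The exception was Adar (log2 fold change 0.04, adjusted p = 0.764), which encodes an RNA-editing deaminase with an interferon-induced and a constitutive form. Trim25, at chr11:88890202-88911122, encodes a ubiquitin ligase that helps RIG-I signal and had the smallest p of the list. It measured 6.14, 5.81 and 4.73 CPM in the Myc mice and 31.9, 28.6, 26.2 and 37 CPM in the H2A.Z KO mice (log2 fold change 2.47 ± 0.18 (SE), adjusted p = 8e-12). Mx2, an antiviral GTPase, measured 1.59, 1.15 and 1.49 CPM in the Myc mice and 13.9, 10.6, 13.5 and 17.1 CPM in the H2A.Z KO mice (log2 fold change 3.27 ± 0.32 (SE), adjusted p = 3.11e-09). No H2A.Z KO mouse came near the Myc mice in either gene, and mouse 34 was highest in both. Xaf1, a pro-apoptotic interferon target, measured 11.8, 9.13 and 8.69 CPM and 72.9, 62.4, 64.5 and 99.5 CPM in turn (log2 fold change 2.92 ± 0.28 (SE), adjusted p = 7.05e-09), and Parp12, an ADP-ribosyltransferase of the antiviral response, 12.5, 10.8 and 8.56 CPM and 49.1, 46.3, 47.8 and 72.1 CPM (log2 fold change 2.34 ± 0.23 (SE), adjusted p = 5.01e-09).

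**Figure D3:**
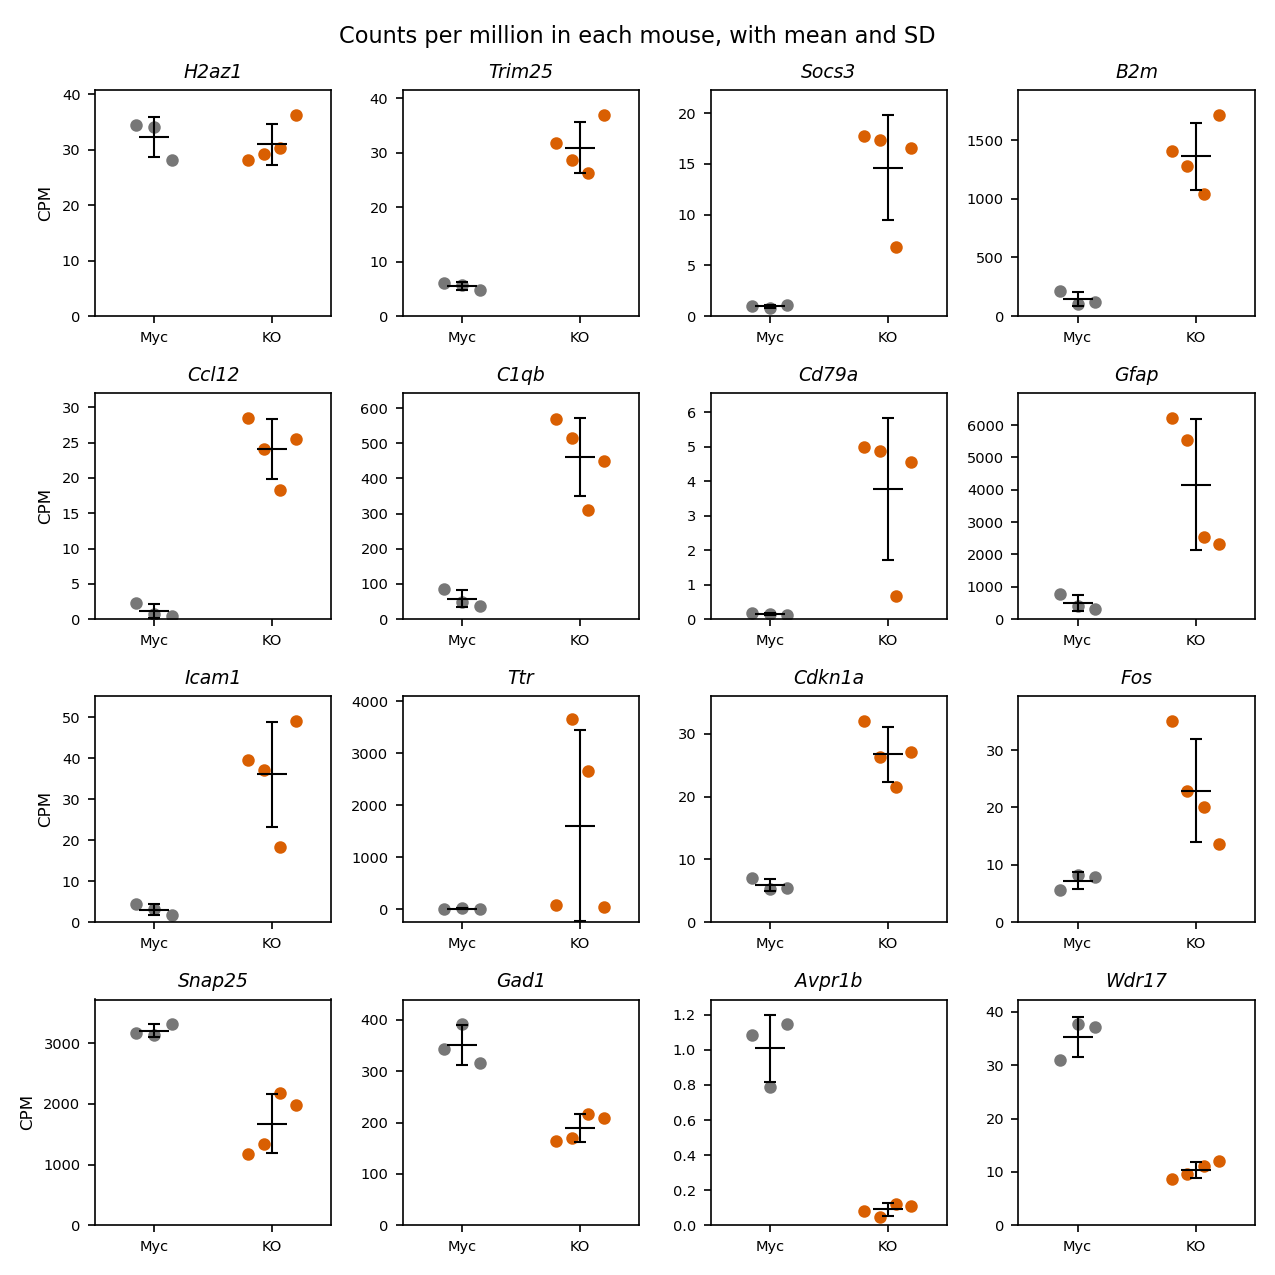
CPM (linear y axis) of 16 genes named in the text, each gene in its own panel, with the 3 Myc and 4 H2A.Z KO females as points and the mean and SD of each group as a dash with whiskers. Trim25, B2m, C1qb and Gfap lie higher and Snap25, Gad1, Avpr1b and Wdr17 lower in each H2A.Z KO mouse than in any Myc mouse, whereas H2az1 overlaps.

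Upstream of these genes, 7 of 11 interferons, receptors and kinases rose and none fell (median log2 fold change 0.64). Ifngr1, a chain of the interferon-gamma receptor, measured 12.9, 12 and 12.8 CPM in the Myc mice and 44.1, 40.1, 24.4 and 39.7 CPM in the H2A.Z KO mice (log2 fold change 1.56 ± 0.19 (SE), adjusted p = 1.09e-07). Without mouse 34, 1 member fell. Ifnar2, a chain of the type I receptor, was 2.03-fold higher (adjusted p = 2.88e-06). The feedback inhibitors Socs1 and Socs3 were 6.12-fold (adjusted p = 0.000459) and 14.9-fold higher (adjusted p = 1.06e-05). These receptors and inhibitors were among the 7 that rose. The largest log2 fold change of the list, 5.84, was that of another member, not named here. The 4 that did not pass were the kinases Jak1 (log2 fold change 0.00, adjusted p = 0.981) and Tyk2 (0.14, adjusted p = 0.436), the receptor chain Ifngr2 (-0.25, adjusted p = 0.0652) and Ifnb1, the gene for interferon-beta (0.64, adjusted p = 0.794).

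Sensors of nucleic acids followed, with 15 of 17 higher and none lower (median log2 fold change 1.903). Tlr3, the endosomal receptor for double-stranded RNA, measured 20.9, 18.4 and 19.2 CPM in the Myc mice and 71, 66.7, 49.5 and 70.6 CPM in the H2A.Z KO mice (log2 fold change 1.72 ± 0.17 (SE), adjusted p = 5.01e-09). Ifih1, the cytosolic RNA sensor MDA5, measured 5.19, 3.68 and 3.83 CPM and 26.1, 24.6, 25.1 and 38.4 CPM in turn (log2 fold change 2.74 ± 0.30 (SE), adjusted p = 3.57e-08). RNA sensors of endosome and cytosol alike were thus higher in each H2A.Z KO mouse than in any Myc mouse. Ddx58, which encodes RIG-I, was 7.1-fold higher and Unc93b1, the chaperone of endosomal Toll-like receptors, 5.1-fold. Tbk1, the kinase shared by these routes, did not pass (log2 fold change -0.05, adjusted p = 0.696).

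Among 25 genes of cell death and the inflammasome, 19 rose and none fell (median log2 fold change 1.381). Pycard, the adaptor ASC of inflammasomes, measured 4.08, 2.37 and 2.21 CPM in the Myc mice and 21.6, 18.5, 12.1 and 20.7 CPM in the H2A.Z KO mice (log2 fold change 2.63 ± 0.32 (SE), adjusted p = 1.3e-07). Casp8, the caspase downstream of death receptors, rose 4.14-fold (adjusted p = 8.97e-08), Ripk1 2.3-fold (adjusted p = 1.7e-07) and the TNF receptor gene Tnfrsf1a 5.48-fold (adjusted p = 7.75e-08). For Ripk1 and Tnfrsf1a mouse 33 was the lowest and mouse 13 the highest of the H2A.Z KO mice.

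All 20 genes of MHC class I presentation and all 10 of MHC class II rose, with median log2 fold changes of 3.38 and 3.73. Class I molecules display cytosolic peptides to CD8 T cells and class II molecules display endocytosed peptides to CD4 T cells. The invariant class I chain B2m measured 214, 105 and 122 CPM in the Myc mice and 1409, 1279.7, 1037 and 1717 CPM in the H2A.Z KO mice (log2 fold change 3.21 ± 0.35 (SE), adjusted p = 4.86e-08). H2-K1, a classical class I heavy chain whose reads can be shared with its paralogs, measured 49.8, 20.8 and 24.3 CPM and 415, 373, 256 and 524 CPM in turn (log2 fold change 3.62 ± 0.43 (SE), adjusted p = 1.84e-07). Mouse 33 was lowest and mouse 34 highest among the H2A.Z KO mice for both, and none overlapped with the Myc mice. Summed class II levels were 97.2, 27.5 and 42.8 CPM in the Myc mice and 1210.4, 1354, 729 and 2534 CPM in the H2A.Z KO mice. Ciita, the master activator of class II genes, measured 2.85, 1.98 and 2.09 CPM and 8.67, 7.61, 6.79 and 19 CPM in turn (log2 fold change 2.17 ± 0.40 (SE), adjusted p = 6.01e-05). H2-DMb1, which helps to load peptides on class II, was 11.8-fold higher. The proteasome list moved apart from its immune member. Of 34 subunits Psmb10, an immunoproteasome subunit, was alone in being higher (2.17-fold, adjusted p = 0.000846), Psmb5 and the thymic Psmb11 were lower (log2 fold changes -0.46 and -2.68), and the median was -0.11. Between 1 and 7 subunits were lower as single mice were left out, with 7 without mouse 34.

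Chemokines that draw monocytes and lymphocytes were prominent, with 18 of 24 higher and none lower (median log2 fold change 3.85). Ccl12, a monocyte attractant, measured 2.27, 0.791 and 0.426 CPM in the Myc mice and 28.5, 24.1, 18.3 and 25.5 CPM in the H2A.Z KO mice (log2 fold change 4.27 ± 0.60 (SE), adjusted p = 2.07e-06). Cxcl16, the ligand of CXCR6 on T cells, measured 3.89, 1.62 and 0.852 CPM and 36.9, 31, 17.9 and 37.9 CPM in turn (log2 fold change 3.801 ± 0.54 (SE), adjusted p = 2.63e-06). Both were low in all Myc mice and higher in each H2A.Z KO mouse. Ccl3 and Ccl4, which attract monocytes and T cells, were 9.72-fold and 15-fold higher. The summed list measured 351, 321 and 293 CPM in the Myc mice and 850.4, 799, 809 and 1548 CPM in the H2A.Z KO mice.

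Of 20 cytokines 15 rose and 1 fell (median log2 fold change 2.36, or 2.31 with the gene without counts in Myc mice at its lower bound). Csf1, a survival factor of microglia, measured 30.9, 23.8 and 23.8 CPM in the Myc mice and 136, 118, 73.4 and 92.7 CPM in the H2A.Z KO mice (log2 fold change 2.001 ± 0.23 (SE), adjusted p = 8.58e-08). Tgfb1, an immunoregulatory cytokine, measured 4.03, 3.6 and 3.45 CPM and 22, 19.5, 11.6 and 14.9 CPM in turn (log2 fold change 2.200 ± 0.21 (SE), adjusted p = 1.34e-09). Il1a (5.62-fold) and Tnfsf10, which encodes the death ligand TRAIL (4.96-fold), rose with them. Il34, the neuronal ligand of the CSF1 receptor, was the member that fell (log2 fold change -0.67, adjusted p = 0.00025), opposite to Csf1. Il6 had a log2 fold change of 1.05 with an adjusted p of 0.375. Outside the lists, Lgals9, which encodes galectin-9, was 7.08-fold higher and Cmklr1, the chemerin receptor of macrophages, 5.24-fold. Both belonged to the 15 higher genes of smallest p with separate groups.

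Complement tags cells and synapses for removal by microglia, and 17 of 19 of its genes rose while none fell (median log2 fold change 2.996). C1qb measured 85.6, 49.3 and 38.7 CPM in the Myc mice and 569.6, 514, 311 and 449 CPM in the H2A.Z KO mice (log2 fold change 2.99 ± 0.36 (SE), adjusted p = 1.88e-07). Itgam and Itgb2, the chains of complement receptor 3, were 4.3-fold and 9.39-fold higher, and C5ar1, the receptor of C5a, 7.91-fold. Properdin (Cfp, log2 fold change -0.01, adjusted p = 0.979) and the inhibitor Cd55 (-0.07, adjusted p = 0.88) did not pass.

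Microglial genes rose in both of their usual groups. Of 20 homeostatic markers 16 were higher and none lower, with a median log2 fold change of 1.305. Of 29 genes of phagocytic microglia 27 were higher, with a median of 2.69. Sall1, a transcription factor that marks resident microglia, measured 21, 20.6 and 21.9 CPM in the Myc mice and 51.5, 48, 40.8 and 44.6 CPM in the H2A.Z KO mice (log2 fold change 1.13 ± 0.10 (SE), adjusted p = 1.06e-09). Olfml3, also typical of resident microglia, measured 26.3, 24.9 and 19.3 CPM and 112, 102, 89.9 and 107 CPM in turn (log2 fold change 2.125 ± 0.23 (SE), adjusted p = 2.69e-08). The Myc mice differed little from each other in these markers, and Selplg was 2.4-fold higher in the same pattern. Ctss, a lysosomal protease, measured 178, 83.6 and 79.1 CPM in the Myc mice and 1019, 928, 569 and 921 CPM in the H2A.Z KO mice (log2 fold change 2.92 ± 0.36 (SE), adjusted p = 2.39e-07). Axl, a receptor for apoptotic cells, was 4.04-fold higher, and progranulin (Grn) 4.07-fold. Lpl (log2 fold change 0.37, adjusted p = 0.161) and Ank (-0.08, adjusted p = 0.427) were the phagocytic members that did not pass. Dock8 and Abi3, regulators of the actin skeleton in myeloid cells, were 4.25-fold and 3.48-fold higher.

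The lysosomal list behaved likewise, with 30 of 33 genes higher and none lower (median log2 fold change 1.35). Laptm5, a lysosomal membrane protein of immune cells, measured 47.3, 38.4 and 30.4 CPM in the Myc mice and 224, 208, 131 and 189 CPM in the H2A.Z KO mice (log2 fold change 2.28 ± 0.22 (SE), adjusted p = 6.14e-09). Man2b1, the lysosomal mannosidase, rose 2.55-fold, from 47.7, 39.8 and 35.7 CPM to 118, 120.1, 77.5 and 104 CPM. Ctsf, Neu1 and Mcoln1 did not pass, with log2 fold changes between -0.15 and 0.01.

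Sterol genes were divided by role. All 11 genes of cholesterol efflux and storage rose (median log2 fold change 1.896), whereas 13 of 19 genes of cholesterol synthesis fell and none rose (median -0.46). Abca1, the exporter of cholesterol to apolipoproteins, measured 40.4, 33 and 42.1 CPM in the Myc mice and 285, 223, 121 and 136 CPM in the H2A.Z KO mice (log2 fold change 2.31 ± 0.35 (SE), adjusted p = 5.08e-06). Plin2, which coats lipid droplets, rose 4.11-fold, Npc2, the lysosomal sterol carrier, 4.11-fold and Soat1, which esterifies cholesterol, 2.23-fold. Mvd, an enzyme of the mevalonate pathway, measured 7.22, 8.82 and 6.22 CPM in the Myc mice and 3.02, 3.17, 4.54 and 5.8 CPM in the H2A.Z KO mice (log2 fold change -0.85 ± 0.22 (SE), adjusted p = 0.00289). Fdps (log2 fold change -0.63, adjusted p = 0.00383) and Insig1 (-0.55, adjusted p = 0.00969) were lower too. By summed level mice 13 and 14 were highest for efflux (8448, 7788, 3123 and 3362 CPM in the H2A.Z KO mice, against 1766, 1760.4 and 1333 CPM in the Myc mice) and lowest for synthesis (546, 643, 791 and 886 CPM, against 965, 1049 and 949 CPM). The count of lower synthesis genes was 4 without mouse 13, 5 without mouse 14, 6 without Myc mouse 31 and 7 without Myc mouse 32, and 3 with library totals alone, and Insig1 did not pass without mouse 13 (adjusted p = 0.0549).

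Genes of lymphocytes were low in the Myc mice and, by summed level, higher in each H2A.Z KO mouse. Of 37 markers of T and NK cells 35 rose and none fell (median log2 fold change 4.41, or 4.399 with 1 gene without counts in Myc mice at its lower bound). Their summed level was 55.5, 42.4 and 42.6 CPM in the Myc mice and 312, 272, 187 and 568 CPM in the H2A.Z KO mice. Cd5, a T cell surface receptor, measured 0.0725, 0 and 0.0426 CPM in the Myc mice and 2.59, 2.23, 1.26 and 5.53 CPM in the H2A.Z KO mice (log2 fold change 5.95 ± 0.85 (SE), adjusted p = 1.35e-06). Mouse 34 had the most and mouse 33 the least of the H2A.Z KO mice. Lag3 (11.2-fold) and Havcr2 (4.11-fold), inhibitory receptors that microglia also express, were higher. Zap70 (log2 fold change 0.15, adjusted p = 0.755) and Tox (-0.08, adjusted p = 0.862) did not pass.

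B and plasma cell genes differed most between mice. Of 18 markers 15 rose and none fell (median log2 fold change 4.79), and their summed level was 37.9, 14.5 and 30.6 CPM in the Myc mice and 4716, 4116, 174 and 669 CPM in the H2A.Z KO mice. Cd79a, a chain of the B cell receptor, measured 0.169, 0.158 and 0.128 CPM in the Myc mice and 4.98, 4.86, 0.679 and 4.55 CPM in the H2A.Z KO mice, mouse 33 standing below the rest (log2 fold change 4.59 ± 0.78 (SE), adjusted p = 2.38e-05). Sdc1 (7.21-fold) and Prdm1 (3.52-fold), which mark plasma cells, were higher. All immunoglobulin genes together summed to 40.2, 11.5 and 39.9 CPM in the Myc mice and 6961, 6510.2, 246 and 923 CPM in the H2A.Z KO mice, and 85 of 212 were higher and none lower. Of these 212 genes 151 had no count in any Myc mouse. The 15 largest log2 fold changes with separate groups were all of immunoglobulin genes. Igkv6-23 had no count in the Myc mice and 169, 151, 0.0926 and 36 CPM in the H2A.Z KO mice, which is at least 2675-fold higher by group mean against a floor of 3 counts over the Myc group. Ighv1-12 had none in the Myc mice and 59.2, 119.5, 6.97 and 1.55 CPM in the H2A.Z KO mice, at least 1407-fold higher. Different variable genes led in different mice, and reads can be split among variable genes, so that each value is uncertain. The call of Igkv6-23 (adjusted p = 0.0248) was lost without any 1 of the Myc mice (adjusted p = 0.0692 to 0.0773). Iglc2, a constant lambda chain, measured 0.0725, 0 and 0 CPM in the Myc mice and 9.69, 305, 0.309 and 2.125 CPM in the H2A.Z KO mice, nearly all of it in mouse 14. With the spread of these 7 mice alone, Igkv6-23 (adjusted p = 0.164), Ighv1-12 (adjusted p = 0.15) and Iglc2 (adjusted p = 0.138) did not pass.

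Markers of monocytes, border macrophages and neutrophils rose in 10 of 16 cases and fell in none (median log2 fold change 1.82). Ly6c2, high on inflammatory monocytes, measured 0.411, 0.0395 and 0.213 CPM in the Myc mice and 30.2, 28.6, 3.46 and 17 CPM in the H2A.Z KO mice (log2 fold change 6.33 ± 1.19 (SE), adjusted p = 0.000107). Ccr2, the receptor that brings monocytes into tissue, measured 0.338, 0.0791 and 0.0852 CPM and 4.25, 4.4, 2.53 and 11 CPM in turn (log2 fold change 4.86 ± 0.91 (SE), adjusted p = 9.98e-05). Neither gene overlapped between groups, and the mice that led differed. Haemoglobin genes were higher as well (4 of 5 blood genes, median 0.94), with Hbb-bs at 43.2, 31.2 and 31.1 CPM and 88.5, 64.7, 87 and 59 CPM (log2 fold change 1.08 ± 0.31 (SE), adjusted p = 0.00733). Haemoglobin genes have close paralogs, and the part of residual blood in the lymphocyte and monocyte values was not tested.

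Among astrocyte genes those of reactivity changed most. Of 24 reactive markers 22 rose and 2 fell (median log2 fold change 3.04). Gfap, the intermediate filament of reactive astrocytes, measured 786, 399 and 317 CPM in the Myc mice and 6229, 5548, 2539.8 and 2334 CPM in the H2A.Z KO mice (log2 fold change 3.06 ± 0.43 (SE), adjusted p = 1.78e-06). Osmr, the oncostatin M receptor, measured 9.08, 4.82 and 4.47 CPM and 97.2, 76.2, 35.4 and 45.8 CPM in turn (log2 fold change 3.35 ± 0.49 (SE), adjusted p = 3.87e-06). Mice 13 and 14 lay above mice 33 and 34 in both. Cp, which encodes ceruloplasmin, a ferroxidase, was 5.64-fold higher. The falling members were Amigo2, which neurons of CA2 also express (log2 fold change -1.09), and Fkbp5 (-0.37, adjusted p = 0.0463), a glucocorticoid target. With DESeq2, and without Myc mouse 11, Myc mouse 31, mouse 13 or mouse 14, 1 reactive marker fell in place of 2. Of 18 general astrocyte markers 12 rose and 1 fell (median 0.67). Slc1a3, a glutamate transporter, measured 714, 734 and 682 CPM in the Myc mice and 1539, 1425, 1081 and 1505 CPM in the H2A.Z KO mice (log2 fold change 0.97 ± 0.13 (SE), adjusted p = 6.77e-07). Aldh1l1 was 2.27-fold higher, whereas the main glutamate transporter Slc1a2 (log2 fold change 0.04, adjusted p = 0.821) and glutamine synthetase Glul (0.00, adjusted p = 1) did not pass. Slc6a11, the astrocytic GABA transporter, fell (-0.67, adjusted p = 0.00562), but not past the threshold without Myc mouse 31.

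Myelin and its precursors shifted less. Of 18 oligodendrocyte markers 13 rose (median log2 fold change 0.58), and of 10 precursor markers 7 did (median 0.48), with none lower in either list. Trf, which encodes transferrin, measured 244, 267 and 268 CPM in the Myc mice and 1104, 972, 497 and 912 CPM in the H2A.Z KO mice (log2 fold change 1.75 ± 0.27 (SE), adjusted p = 4.62e-06). Mag, a myelin adhesion protein, measured 109.5, 127 and 143 CPM and 315, 277, 169.9 and 194 CPM in turn (log2 fold change 0.92 ± 0.21 (SE), adjusted p = 0.000823). Mouse 33 was lowest of the H2A.Z KO mice for both, yet above the Myc mice. The major myelin genes Mbp (0.41, adjusted p = 0.0926), Mog (0.46, adjusted p = 0.135) and Mobp (0.39, adjusted p = 0.0998) did not pass. Enpp6, a marker of newly formed oligodendrocytes, was 2.115-fold higher, whereas Pdgfra and Cspg4 of precursors had log2 fold changes of -0.05 and -0.06 and did not pass. The count of oligodendrocyte markers fell to 6 without Myc mouse 11, 7 without mouse 13 and 8 without mouse 14, and that of precursors to 4 without Myc mouse 11.

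Vessel genes rose, adhesion molecules among them. Of 21 endothelial genes 16 were higher and none lower (median log2 fold change 0.66). Icam1 and Vcam1 encode ligands that arrest leukocytes on the vessel wall. Icam1 measured 4.35, 3.12 and 1.7 CPM in the Myc mice and 39.5, 37.2, 18.4 and 49.1 CPM in the H2A.Z KO mice (log2 fold change 3.53 ± 0.49 (SE), adjusted p = 1.65e-06). Vcam1 measured 28.9, 30.7 and 22.6 CPM and 148, 144, 94 and 172 CPM in turn (log2 fold change 2.35 ± 0.33 (SE), adjusted p = 1.96e-06). Mouse 34 had the most of both, and Vwf, which encodes von Willebrand factor, was 3.63-fold higher. Of 17 genes of mural cells and fibroblasts 14 rose (median 1.501), among them the pericyte receptor Pdgfrb (1.79-fold, adjusted p = 4.35e-05). Without mice 14 and 33, whose libraries held much choroid plexus RNA, 9 of these and 12 of the 21 endothelial genes rose. Collagens and other matrix genes rose in 38 of 49 cases and fell in 2 (median 1.35). Bgn, the proteoglycan biglycan, measured 12.6, 12.1 and 12.6 CPM in the Myc mice and 82.7, 77.2, 51.1 and 45.8 CPM in the H2A.Z KO mice (log2 fold change 2.37 ± 0.40 (SE), adjusted p = 2.99e-05), and Thbs1, an astrocytic inducer of synapses, was 6.7-fold higher. Col11a1 and Lamb1 were the members that fell (log2 fold changes -0.84 and -0.68).

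**Figure D4:**
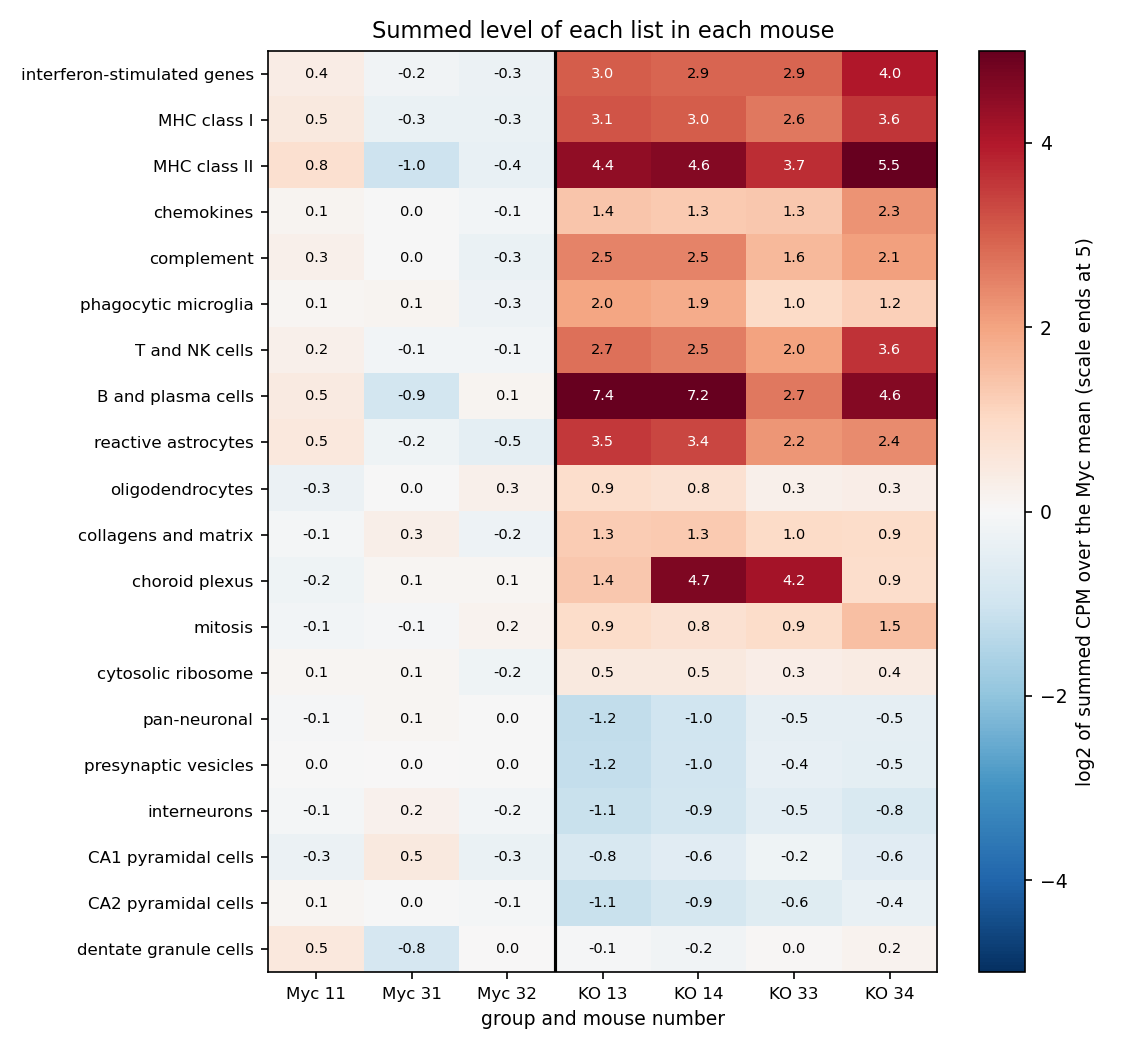
Heat map of the summed CPM of gene lists (rows) in each of the 7 mice (columns), coloured by log2 of the level over the mean of the 3 Myc mice, with the colour scale ending at 5. Interferon, antigen presentation and lymphocyte lists lie above 0 in the 4 H2A.Z KO mice, pan-neuronal and synaptic lists lie below 0 there, and the choroid plexus list is highest in mice 14 and 33.

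The choroid plexus, which secretes cerebrospinal fluid, lies next to the hippocampus and can be dissected with it. Ttr, its transthyretin gene, measured 10.1, 26.1 and 7.03 CPM in the Myc mice and 84.3, 3655, 2654 and 35.6 CPM in the H2A.Z KO mice (log2 fold change 6.81 ± 2.13 (SE), adjusted p = 0.0129). Otx2, the transcription factor of this epithelium, measured 0.314, 0.435 and 0.681 CPM and 2.24, 23.8, 15.3 and 1.91 CPM in turn (log2 fold change 4.54 ± 1.25 (SE), adjusted p = 0.00501). In both genes mice 14 and 33 stood apart from the rest, and mice 13 and 34 stood above the Myc mice. The list had 19 of 20 members higher (median log2 fold change 4.46), and its summed level was 209.5, 264 and 258 CPM in the Myc mice and 623, 6254, 4337 and 446 CPM in the H2A.Z KO mice. Without mice 14 and 33, 1 member rose, and Ttr (adjusted p = 0.425) and Otx2 (adjusted p = 0.208) did not pass. The count was 12 without mouse 14 alone and 8 without Myc mouse 11, and Ttr did not pass without Myc mouse 11 (adjusted p = 0.0532) or 32 (adjusted p = 0.0568). Igfbp2, a list member that other brain cells also express, measured 10.1, 14.9 and 9.15 CPM in the Myc mice and 102, 131, 82.2 and 81.2 CPM in the H2A.Z KO mice and did not follow mice 14 and 33 alone (log2 fold change 3.12 ± 0.57 (SE), adjusted p = 7.62e-05). Of 12 genes of ependymal cilia 6 rose and 1 fell. Foxj1, the regulator of motile cilia, measured 3.31, 2.57 and 3.36 CPM and 21.4, 25.3, 11.9 and 15.6 CPM in turn (log2 fold change 2.59 ± 0.43 (SE), adjusted p = 1.94e-05), whereas the axonemal gene Spag6l fell (log2 fold change -0.77, adjusted p = 0.00555). The ependymal count was 3 without mice 14 and 33, without mouse 14 and without Myc mouse 11.

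Markers of neighbouring tissue were mixed. In the thalamus list 5 of 8 rose (median log2 fold change 0.58), and Tcf7l2, Prkcd, Lef1, Synpo2 and Plekhg1, of which several are also expressed in vessels or glia, made up that count. It was 3 without mouse 13, mouse 14, Myc mouse 31 or Myc mouse 32. The defining relay-neuron gene Slc17a6 had a log2 fold change of -0.62 with an adjusted p of 0.296. In the striatum list Adora2a rose (1.16) and Drd2 (-1.46) and Pde10a (-0.57) fell, with a median over 10 genes of 0.05. Genes of pineal gland and photoreceptors were low in all mice (6.93, 6.13 and 7.32 CPM summed in the Myc mice and 12.8, 13.1, 9.13 and 9.67 CPM in the H2A.Z KO mice), with Crx and Rom1 higher and Aanat lower. As single mice were left out, 1 to 4 of these genes were higher, with 1 without mouse 13, mouse 14 or Myc mouse 32 and 4 without mouse 34, and none was lower without mouse 14 or Myc mouse 32. The part of dissection in any other result was not tested.

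Genes of dividing cells were higher. Of 32 mitotic genes 25 rose and none fell (median log2 fold change 1.604), and of 34 replication genes 16 rose and none fell (median 0.47). Top2a, a topoisomerase of dividing cells, measured 1.62, 1.54 and 2.3 CPM in the Myc mice and 8.16, 4.77, 10.5 and 26 CPM in the H2A.Z KO mice (log2 fold change 2.77 ± 0.56 (SE), adjusted p = 0.000248). Cdk1, the mitotic kinase, measured 0.556, 0.475 and 0.213 CPM and 2.61, 1.92, 2.13 and 5.31 CPM in turn (log2 fold change 2.800 ± 0.56 (SE), adjusted p = 0.000152). Mouse 34 led in both, as it did for Cd5. Mcm3 of the replicative helicase rose 4.26-fold and Uhrf1, which maintains DNA methylation at replication, 5.05-fold. Of 28 targets of p53, 17 rose and 1 fell (median 0.65). Cdkn1a, the cell cycle inhibitor p21, measured 6.98, 5.34 and 5.36 CPM in the Myc mice and 32.1, 26.2, 21.4 and 27.2 CPM in the H2A.Z KO mice (log2 fold change 2.17 ± 0.22 (SE), adjusted p = 6.7e-09). Eda2r and Trp53inp1 were 6.58-fold and 2.36-fold higher, and Ei24 was the member that fell (log2 fold change -0.29).

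Of 61 replication-dependent histone genes 15 rose and 1 fell, with the share higher close to that over genes with at least 1 CPM (median log2 fold change 0.77, or 0.74 with genes without counts in Myc mice at their bounds). H1f2, a linker histone, measured 9.52, 10.5 and 5.92 CPM in the Myc mice and 34.3, 31.9, 26.1 and 29.1 CPM in the H2A.Z KO mice (log2 fold change 1.81 ± 0.22 (SE), adjusted p = 1.15e-07). H2bc4 rose 2.02-fold (adjusted p = 3.38e-07), and H3c6 was the member that fell (-2.31, adjusted p = 0.0419). No histone gene fell without any 1 of the H2A.Z KO mice, without Myc mouse 32 or with the groups compared alone, and 2 fell without Myc mouse 31. The number higher was 9 without Myc mouse 31, and copies of these genes share sequence. Of 80 genes of the cytosolic ribosome 50 rose and none fell (median 0.50). Rplp0 measured 131, 133 and 96.9 CPM in the Myc mice and 229, 232, 185 and 226 CPM in the H2A.Z KO mice (log2 fold change 0.86 ± 0.16 (SE), adjusted p = 4.81e-05), and Rpl5 was 1.57-fold higher. Myc mouse 32, with its high share of ribosomal RNA, had the lowest Rplp0, and without it 27 ribosomal genes rose.

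The unfolded protein and integrated stress response rose in 13 of 16 genes (median log2 fold change 0.46). Atf3, an early stress transcription factor, measured 2.27, 1.62 and 0.766 CPM in the Myc mice and 17.6, 17.5, 9.47 and 11.7 CPM in the H2A.Z KO mice (log2 fold change 3.14 ± 0.41 (SE), adjusted p = 4.75e-07). Pdia4, a disulfide isomerase of the endoplasmic reticulum, was 2.39-fold higher and Ddit3, which encodes CHOP, 1.67-fold. Atf4 itself (0.19, adjusted p = 0.184) did not pass, and Asns, a target of ATF4, fell (-0.38, adjusted p = 0.0243). Asns did not pass without Myc mouse 11, without Myc mouse 31, without mouse 13 or without mouse 14. Among the most certain higher genes outside the lists were RNA-binding regulators. Ptbp1, a splicing repressor low in neurons, measured 31, 27.8 and 27.8 CPM in the Myc mice and 70.7, 69, 52.7 and 63.3 CPM in the H2A.Z KO mice (log2 fold change 1.15 ± 0.11 (SE), adjusted p = 3.35e-09). Zfp36, which encodes tristetraprolin and destabilises cytokine transcripts, measured 3.04, 2.85 and 2.43 CPM and 18.8, 17.7, 8.79 and 16.5 CPM in turn (log2 fold change 2.47 ± 0.25 (SE), adjusted p = 5.01e-09). Both had little spread within the Myc group, which a choice by smallest p favours.

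Neuronal genes were lower. Of 14 pan-neuronal genes 13 fell and none rose (median log2 fold change -0.65), and their summed level was 9388, 10329.7 and 9638 CPM in the Myc mice and 4169.7, 4898, 7151 and 7078 CPM in the H2A.Z KO mice. Snap25, the SNARE protein of synaptic vesicle release, measured 3177, 3131 and 3324 CPM in the Myc mice and 1181, 1345, 2177 and 1986 CPM in the H2A.Z KO mice (log2 fold change -0.94 ± 0.16 (SE), adjusted p = 1.07e-05). Stmn2, a tubulin-binding protein of growing axons, measured 381, 465 and 383 CPM and 104, 138, 263 and 288 CPM in turn (log2 fold change -1.05 ± 0.21 (SE), adjusted p = 0.00014). Mice 13 and 14 were below mice 33 and 34 in both, and no H2A.Z KO mouse reached a Myc mouse. Syt1, the calcium sensor of release, was 1.97-fold higher in the Myc mice, and Rbfox3, which encodes NeuN, 1.5-fold. Nefm was the member that did not pass (-0.28, adjusted p = 0.307). When the spread was estimated from these 7 mice alone, 5 of the 14 fell and Stmn2 had an adjusted p of 0.0857.

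Markers of hippocampal subfields did not move together. In CA2, 5 of 10 genes fell (median log2 fold change -0.97). Avpr1b, the vasopressin receptor that defines CA2, measured 1.09, 0.791 and 1.15 CPM in the Myc mice and 0.0808, 0.0446, 0.123 and 0.109 CPM in the H2A.Z KO mice (log2 fold change -3.48 ± 0.63 (SE), adjusted p = 4.07e-05). Rgs14, which limits plasticity in CA2, measured 112, 99.7 and 86.2 CPM and 28.3, 37.5, 53.2 and 66.1 CPM in turn (log2 fold change -1.104 ± 0.20 (SE), adjusted p = 6.71e-05). Each H2A.Z KO mouse was below each Myc mouse for both, whereas Pcp4 of the same field (-0.19, adjusted p = 0.425) did not pass. In CA3, 6 of 8 genes fell (median -0.97), with Prss35 at 11.6, 11.7 and 16.1 CPM and 2.61, 3.24, 4.94 and 6.21 CPM (log2 fold change -1.63 ± 0.25 (SE), adjusted p = 3.66e-06) and Cpne4 at 125, 75 and 106 CPM and 22.7, 26.7, 56.1 and 67.4 CPM (log2 fold change -1.25 ± 0.30 (SE), adjusted p = 0.00138). In CA1, 4 of 9 fell (median -0.53), but the summed level was 580.2, 988 and 573 CPM in the Myc mice and 407, 485, 616 and 481 CPM in the H2A.Z KO mice, where Myc mouse 31 stood above the rest. Fibcd1, an endocytic receptor used as a CA1 marker, measured 92.3, 206 and 69.99 CPM and 55.9, 57.7, 71.5 and 58.8 CPM in turn, with overlap. Without Myc mouse 31 no CA1 marker passed, and Fibcd1 had an adjusted p of 0.332, and without mouse 13, 2 passed. The dentate list showed the reverse imbalance of mouse 31, with 1063, 417 and 759 CPM in the Myc mice and 721, 667, 772 and 833 CPM in the H2A.Z KO mice, 2 of 13 higher and a median of 0.03. Glis3 (2.001-fold) and Pdzd2 (1.52-fold) were those members, and neither passed without Myc mouse 31 (adjusted p = 0.0875 and 0.0935). No dentate marker was lower with all mice, and 1 was without Myc mouse 31 or mouse 34. Calb1, which encodes calbindin, had a log2 fold change of -0.47 with an adjusted p of 0.108.

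Genes of inhibitory neurons were lower, with 20 of 27 interneuron genes lower and none higher (median log2 fold change -0.81). Pvalb, the marker of fast-spiking cells, measured 28.9, 48 and 34.1 CPM in the Myc mice and 10.1, 9.88, 15 and 12.3 CPM in the H2A.Z KO mice (log2 fold change -1.65 ± 0.23 (SE), adjusted p = 1.43e-06). Gad1, which makes GABA, measured 344, 393 and 316 CPM and 163, 169.8, 217 and 208 CPM in turn (log2 fold change -0.89 ± 0.12 (SE), adjusted p = 7.58e-07). Lhx6, the transcription factor of interneurons from the medial ganglionic eminence, was 1.96-fold higher in the Myc mice. The groups did not overlap for these 3 genes. Without Myc mouse 31, 2 interneuron genes were higher.

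Genes of transmitter receptors were mostly lower or did not pass. Of 25 glutamate receptor genes 12 were lower and none higher (median log2 fold change -0.41), and of 16 GABA receptor genes 8 were lower and none higher (median -0.39). Grid1, which links synapses as a delta receptor, measured 60.2, 71 and 59.4 CPM in the Myc mice and 28.2, 33.1, 44.8 and 42.7 CPM in the H2A.Z KO mice (log2 fold change -0.77 ± 0.13 (SE), adjusted p = 1.86e-05). The groups were apart, with mice 13 and 14 below mice 33 and 34. Gabra3, a subunit of the GABA-A receptor, measured 53.4, 119.9 and 77.1 CPM in the Myc mice and 24, 24.6, 29.8 and 21 CPM in the H2A.Z KO mice (log2 fold change -1.75 ± 0.26 (SE), adjusted p = 3.13e-06), and Gabbr2, a chain of the GABA-B receptor, was 1.7-fold higher in the Myc mice. Without Myc mouse 31 or mouse 34, 1 GABA receptor gene was higher. The number of lower GABA receptor genes was 5 without mouse 13, 5 without mouse 14 and 5 with library totals alone. Of 44 receptors for serotonin, acetylcholine, dopamine, noradrenaline, opioids, cannabinoids and neuropeptide Y, 17 fell and 3 rose (median -0.52). Chrnb2, at chr3:89653502-89671953, encodes a nicotinic receptor subunit and measured 50.8, 55.9 and 48.4 CPM in the Myc mice and 16.6, 17.8, 23.4 and 27.9 CPM in the H2A.Z KO mice (log2 fold change -1.27 ± 0.12 (SE), adjusted p = 1.06e-09). Oprl1, the nociceptin receptor, measured 27.5, 36.9 and 27.8 CPM and 8.78, 11.2, 12 and 9.89 CPM in turn (log2 fold change -1.55 ± 0.15 (SE), adjusted p = 1.58e-09). Drd5, a dopamine receptor, was 2.43-fold higher in the Myc mice. Chrnb4 (log2 fold change 4.48) and Drd4 (1.59) were among the receptors that rose.

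Synaptic scaffolds and release machinery fell broadly. Of 36 postsynaptic genes 27 were lower (median log2 fold change -0.49) and of 45 presynaptic genes 32 were lower (median -0.63), with none higher in either list. Begain, which binds PSD-95, measured 59.2, 73.6 and 57.7 CPM in the Myc mice and 22.9, 23.9, 29.1 and 21 CPM in the H2A.Z KO mice (log2 fold change -1.39 ± 0.23 (SE), adjusted p = 1.78e-05). Cacng2, which encodes stargazin, an auxiliary subunit of AMPA receptors, measured 78.8, 80.6 and 86.1 CPM and 31.7, 35.6, 53.8 and 50.1 CPM in turn (log2 fold change -0.94 ± 0.14 (SE), adjusted p = 2.73e-06). Begain was as low in mouse 34 as in mouse 13, whereas Cacng2 was lower in mice 13 and 14 than in mice 33 and 34. Vamp1, a vesicle SNARE, measured 110.1, 119 and 114 CPM in the Myc mice and 33.1, 36.8, 61.1 and 59.7 CPM in the H2A.Z KO mice (log2 fold change -1.26 ± 0.19 (SE), adjusted p = 4.08e-06). Cplx1, a complexin of fast release, was 2.11-fold higher in the Myc mice and the scaffold Shank2 1.47-fold. The number of lower postsynaptic genes was 15 without mouse 13, 15 with the spread of these 7 mice alone and 15 with library totals alone.

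Of 73 voltage-gated and leak channel genes 53 fell and 1 rose (median log2 fold change -0.56). Nalcn, the sodium leak channel that sets resting potential, measured 94, 110.5 and 109 CPM in the Myc mice and 32.1, 36.5, 48.7 and 52.6 CPM in the H2A.Z KO mice (log2 fold change -1.298 ± 0.13 (SE), adjusted p = 3.22e-09). Kcnc2, a potassium channel of fast-spiking neurons, measured 83.7, 94 and 88 CPM and 34.3, 37.2, 53.9 and 39.3 CPM in turn (log2 fold change -1.105 ± 0.12 (SE), adjusted p = 1.37e-08). Kcnn1, a calcium-activated potassium channel, was 2.53-fold higher in the Myc mice. The groups were apart for these 3 genes, and Kcnk1, which astrocytes also express, was the member that rose (0.33, adjusted p = 0.0252), a call lost without mouse 13, mouse 14, Myc mouse 31 or Myc mouse 32.

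Clustered protocadherins give neurons surface identities by expressing few of many isoforms that share constant exons, so that reads can be split among them. Of 58 such genes 14 fell and 3 rose (median log2 fold change -0.29). Pcdhgc3, an isoform that many cell types express, measured 29.9, 26.9 and 24.3 CPM in the Myc mice and 60.03, 64.3, 48.6 and 59.4 CPM in the H2A.Z KO mice (log2 fold change 1.102 ± 0.14 (SE), adjusted p = 2.7e-07). Pcdhb19 measured 5.17, 4.82 and 6.43 CPM and 2.07, 2.5, 3.21 and 2.97 CPM in turn (log2 fold change -1.03 ± 0.20 (SE), adjusted p = 0.000138). Both had separate groups, and they moved in opposite directions. Pcdhgb5 and Pcdhgb7 rose too (log2 fold changes 0.80 and 0.60). With the spread of these 7 mice alone 6 isoforms fell, and without Myc mouse 31, 1 rose.

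Immediate early genes, which neurons induce on activity, were higher in 9 of 23 cases and lower in 2 (median log2 fold change 0.45). Fos measured 5.56, 8.3 and 7.88 CPM in the Myc mice and 35.1, 22.9, 20.1 and 13.6 CPM in the H2A.Z KO mice (log2 fold change 1.67 ± 0.36 (SE), adjusted p = 0.000484). Nptx2, an activity-regulated pentraxin of excitatory synapses, measured 19.3, 23.8 and 16.2 CPM and 59.2, 54, 48.1 and 54.5 CPM in turn (log2 fold change 1.45 ± 0.31 (SE), adjusted p = 0.00039). These values were all above those of the Myc mice, as were those of Btg2 (1.65-fold). Nr4a3 (-0.76, adjusted p = 0.00366) and Homer1 (-0.48, adjusted p = 0.0011) fell. Of 16 genes of adult neurogenesis 4 rose and 1 fell (median 0.31). The rising members Sox2 (1.67-fold), Nes (1.8-fold), Sox4 (log2 fold change 0.52) and Igfbpl1 (3.01-fold) mark stem cells or young progenitors, although Sox2 and Nes are also astrocytic. Dcx, the marker of migrating neuroblasts, fell (-0.67, adjusted p = 0.0291), but did not pass without Myc mouse 31, Myc mouse 32, mouse 13 or mouse 14, and Igfbpl1 did not pass without Myc mouse 31 (adjusted p = 0.0578).

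The lower genes of smallest p were not the classical neuronal markers. Wdr17, at chr8:55081860-55340219 of GRCm39, measured 30.9, 37.8 and 37.2 CPM in the Myc mice and 8.62, 9.55, 11.1 and 12.1 CPM in the H2A.Z KO mice (log2 fold change -1.77 ± 0.10 (SE), adjusted p = 4.26e-15), the smallest p of all genes tested. Flot2, at chr11:77928723-77951263, encodes flotillin-2, a membrane scaffold, and measured 82.8, 91.7 and 87.6 CPM and 45.5, 45.5, 43.7 and 46.7 CPM in turn (log2 fold change -0.95 ± 0.0712 (SE), adjusted p = 8e-12). Smyd5, at chr6:85408946-85425833, encodes a lysine methyltransferase and measured 39.6, 49 and 39.6 CPM and 16.7, 16.6, 15.5 and 18.5 CPM in turn (log2 fold change -1.34 ± 0.11 (SE), adjusted p = 1.3e-10). For Flot2 and Smyd5 the 4 H2A.Z KO mice lay close together, whereas for Snap25, Cacng2 and Vamp1 mice 13 and 14 were lower than mice 33 and 34. A choice by smallest p favours genes with little spread within groups, so this closeness does not set them apart. Wdr17 and Nicn1, named by the same rule, were also lower in mice 13 and 14 than in mice 33 and 34. Nicn1, at chr9:108167601-108173698, a subunit of the tubulin polyglutamylase complex, fell from 85, 99.3 and 86.3 CPM to 37.9, 44.9, 50.01 and 52 CPM (log2 fold change -0.96 ± 0.0777 (SE), adjusted p = 3.93e-11). Pygo1, at chr9:72832366-72859865, encodes a reader of histone H3 methylation in Wnt signalling and fell from 95.5, 89.8 and 88.3 CPM to 39.4, 40.2, 46.4 and 40.3 CPM (log2 fold change -1.13 ± 0.10 (SE), adjusted p = 3.87e-10). Vstm5, at chr9:15150329-15170716, encodes a membrane protein of the immunoglobulin fold and fell from 7.88, 11.8 and 7.58 CPM to 1.75, 2.14, 1.48 and 1.83 CPM (log2 fold change -2.33 ± 0.22 (SE), adjusted p = 1.06e-09). Nyap1, Morn4 and Tubg2 were 2.22-fold, 1.99-fold and 2.35-fold higher in the Myc mice. All of these are annotated as protein-coding, and the coordinates span the gene. Plaat1 (log2 fold change -1.80), Lysmd4 (-0.99), Mcts1 (-0.89) and Tspyl3 (-1.23) complete the 15 lower genes of smallest p with separate groups, together with Chrnb2 and Oprl1, which are receptors.

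Among the largest decreases with separate groups, several genes are known from germ cells or other tissues. Plcz1, the sperm phospholipase that activates the egg, measured 2.92, 2.69 and 2.85 CPM in the Myc mice and 0.485, 0.223, 0.278 and 0.436 CPM in the H2A.Z KO mice (log2 fold change -2.98 ± 0.43 (SE), adjusted p = 1.35e-06). Tbata, named for its expression in thymus and testis, measured 12.5, 14.4 and 10.5 CPM and 1.37, 2.01, 2.25 and 2.72 CPM in turn (log2 fold change -2.58 ± 0.28 (SE), adjusted p = 2.12e-08). Tmem114 measured 3.82, 2.06 and 2.38 CPM and 0.35, 0.0669, 0.339 and 0.654 CPM in turn (log2 fold change -2.98 ± 0.51 (SE), adjusted p = 1.96e-05). Plcz1 was low but steady in the Myc mice, whereas Tmem114 was low and varied from mouse to mouse. Each of these genes was lower in each H2A.Z KO mouse than in any Myc mouse. Nrsn2, which encodes a neuronal vesicle membrane protein, measured 22.4, 46.3 and 29.8 CPM in the Myc mice and 6.97, 10.3, 9.53 and 8.01 CPM in the H2A.Z KO mice (log2 fold change -1.91 ± 0.24 (SE), adjusted p = 2.22e-07). The others of the 15 largest decreases were Akr1c18 (-3.30), Lhfpl5 (-2.42), Smim18 (-2.10), Ctxn2 (-2.09), Zbtb8b (-2.02), Sebox (-1.91), Epyc (-1.90), Cldn22 (-1.88), Asb16 (-1.87), Apol8 (-1.86) and Vstm5 described above.

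Genes of energy metabolism moved little. Of 77 nuclear genes of the respiratory chain 15 fell (19.5%) and 2 rose (2.6%), with a median log2 fold change of -0.22. Over all genes with a mean of at least 1 CPM 25% were lower and 24.7% higher. Ndufs1, a core subunit of complex I, measured 158, 191 and 159.7 CPM in the Myc mice and 117, 119, 133 and 134 CPM in the H2A.Z KO mice (log2 fold change -0.43 ± 0.0818 (SE), adjusted p = 8.06e-05). Of 13 protein genes of the mitochondrial genome 3 fell (23.1%), namely COX3, ND1 and ND4, with a median of -0.31. The summed level of the 13 was 119292, 127515 and 115013 CPM in the Myc mice and 80737, 96640.5, 105624 and 99069.6 CPM in the H2A.Z KO mice. COX3 measured 13800.5, 14942 and 11412 CPM in the Myc mice and 8772, 10728, 10754 and 11208 CPM in the H2A.Z KO mice (log2 fold change -0.37 ± 0.13 (SE), adjusted p = 0.0265), but did not pass without Myc mouse 11, Myc mouse 31 or mouse 13 (adjusted p = 0.079 to 0.153). Of the 13 mitochondrial genes none fell without mouse 13, without Myc mouse 31 or with the groups compared alone, 1 fell without Myc mouse 11, and 7 fell with the range of sample numbers as a covariate. The respiratory chain count was 3 without Myc mouse 31, 5 without mouse 13 and 2 with library totals alone, and Atp5g2 and Sdhc were the nuclear members that rose. None rose without mouse 13, mouse 14 or Myc mouse 32 or with the groups compared alone, and 1 rose without Myc mouse 31.

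Across the genome the shares of called genes differed with gene length and promoter composition. Of 13952 protein-coding genes with a mean of at least 1 CPM, 25.8% were higher and 24.8% lower. These were divided by length into 5 groups of about 2790 genes. Of the shortest genes 27.7% were higher and 20.5% lower, whereas of the longest, from 83.7 kb, 21.3% were higher and 32.2% lower. The observed-to-expected ratio of CpG was taken over 500 bases on each side of the annotated start in GRCm39, again in 5 groups. Where the ratio was lowest, up to 0.36, 42.6% of genes were higher and 19.5% lower, whereas where it was highest, from 0.83, 18.5% were higher and 23.6% lower. Promoters poor in CpG thus held more than their share of higher genes and long genes more than their share of lower genes. On the autosomes 21.7% to 31.6% of genes were higher and 21.9% to 29.3% lower, and on the X chromosome 20.0% and 30.2%. These are descriptions over genes, which are not independent, and the expression level and cell type of the genes differ between these groups and were not held constant.

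**Figure D5:**
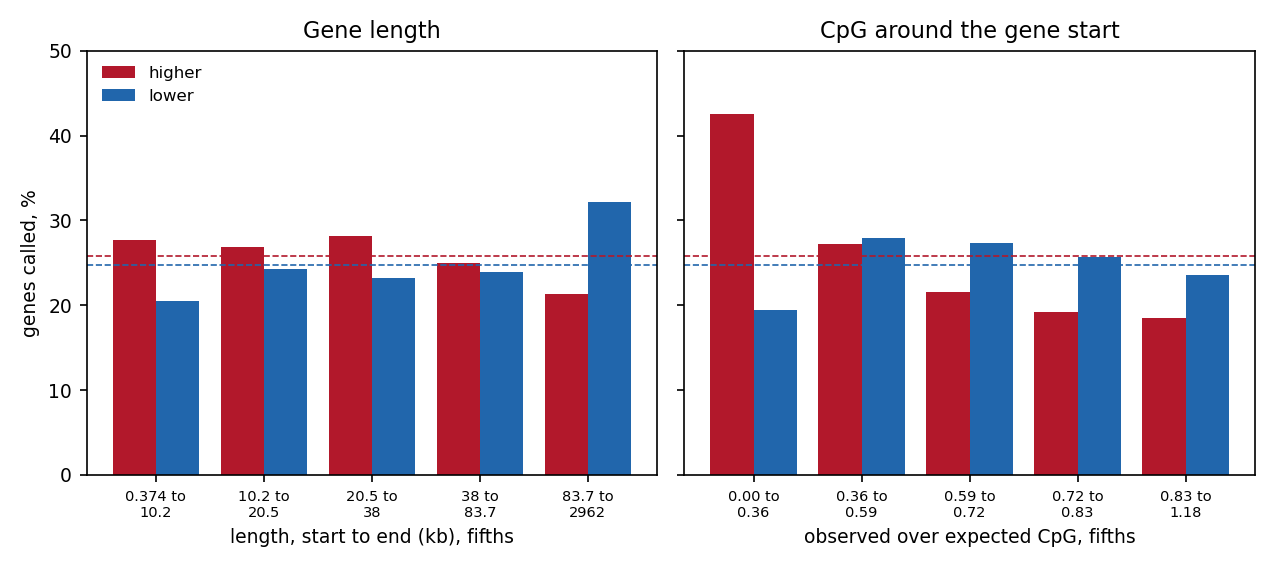
Percent of protein-coding genes with at least 1 CPM that were higher or lower in H2A.Z KO females (y axis), in 5 groups of about 2790 genes by gene length and by the CpG observed-to-expected ratio around the start (x axes). The share of lower genes is largest among the longest genes (32.2%) and the share of higher genes is largest where CpG is lowest (42.6%).

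The same comparison in males, 4 H2A.Z KO against 4 Myc mice in the same fit, gave 4900 higher (17.2%) and 4104 lower genes (14.4%). The female and male comparisons share no mice. For the interferon list the median log2 fold change was 3.82 in females and 4.35 in males, with 59 and 59 members higher. For MHC class II it was 3.73 and 5.304, for T and NK cells 4.41 and 5.76, for pan-neuronal genes -0.65 and -0.41, and for interneurons -0.81 and -0.61. The gene with the smallest p named here, Wdr17, had -1.77 in females and -1.66 in males. The choroid plexus list had 4.46 and 0.69, with 19 and 1 members higher. The difference between the sexes passed for 0 of 28449 genes with edgeR. DESeq2 called 30 genes, and without adjustment 1569 genes (5.52%) lay under 0.05 in edgeR. Without Myc female 31, 88 genes passed, and without Myc female 11, 29 did. Of the genes described above, Ciita, Ttr, Otx2, Cdk1, Pcdhgc3, Flot2 and Tmem114 had an unadjusted p under 0.05 for the difference, and none passed after adjustment. No result given here is therefore shown to be particular to females.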

How the data were processed

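RNA-seq was performed on total RNA from the hippocampus, with 1 library per mouse. Reads were aligned by the authors to GRCm39 with Rsubread and assigned to genes with featureCounts, after checks with FastQC 0.11.9, and were deposited as raw counts per gene. Strand is not given in the sources used here, so that overlapping and antisense genes are uncertain. The authors also deposited counts divided by DESeq2 1.38.3 size factors, which were not used. Genes with a count sum under 20 were removed as in the study. The remaining counts were scaled by TMM, and edgeR 4.0.16 (R 4.3.3) was used for a robust quasi-likelihood fit with a mean for each of 10 groups of sex and virus over 40 mice, so that the spread was shared with mice outside the comparison. P-values were adjusted by Benjamini-Hochberg over 28449 genes at 0.05 and measure the spread between mice. On simulated counts for 27972 genes the fit recovered 85 of 100 genes changed 2-fold and 98 of 100 changed 4-fold. The changed genes all had a mean of at least 1 CPM in the Myc mice and were raised and lowered equally often. Counts were drawn independently with the fit's own spread. These rates therefore do not cover genes of low counts or the many unequal changes of the real comparison. Group floors were 3 counts, which is 0.0333 CPM for the Myc and 0.0199 CPM for the H2A.Z KO group, and cover counting error only.

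The members, the 56 gene lists and the tests were chosen with earlier results of these data known. Named genes were H2az1, H2az2, Ttr, Prl, Xist, the 15 largest changes and the 15 smallest p per direction (mean of at least 1 CPM, separate groups, no predicted loci), and a choice from the 4 members of smallest p in each list. Genes with an ISRE shown, and members named as exceptions, were chosen after their values were seen. Alternatives were DESeq2 1.42.0, its size factors in edgeR, filterByExpr, all genes with a count, only the groups compared, estimation that is not robust, a covariate for the range of the sample number, leaving out each mouse, leaving out mice above 1000 CPM of Ttr and, added after seeing the data, library totals alone. Symbols were matched to the GRCm39 annotation for 84.4% of genes tested and 94.6% of those with at least 1 CPM. Values of some single genes are not reported here.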

Additional observations from a re-analysis of the deposited data

Results flagged for a closer look

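In 15 of 227 genes and lists checked, the highest or lowest of the 4 H2A.Z KO mice stood apart from the others, meaning that its gap to the nearest mouse as a share of the group's range exceeded Dixon's critical value for 4 samples. Chance flags about 1 in 20 such groups, and the genes are not independent. Mouse 34 was the high one for Parp12 (gap 0.894 of the range), Ifit3b (0.971), Bst2 (0.855), Ifih1 (0.885), Ciita (0.845) and Uhrf1 (0.992), and for the summed levels of the interferon-stimulated genes (0.929) and the chemokines (0.932). Mouse 33 was the low one for Socs3 (0.894), Unc93b1 (0.936), Dock8 (0.833), Cd79a (0.899) and Rplp0 (0.87). Mouse 14 was the high one for Iglc2 (0.969), and mouse 33 was the high one for Pygo1 (0.874). Without mouse 34, 59 members of the interferon list were higher, and without mice 14 and 33, 59 were.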

How the results depend on the processing

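No paired analysis was possible because each mouse number belongs to 1 group only. Higher genes numbered 4291 to 5278 at any fold and 2731 to 3336 past a log2 fold change of 1 as each mouse was left out. Lower genes numbered 3591 (without mouse 13) to 4673 and 665 (without Myc mouse 32) to 1267. Genes whose response differed between the sexes numbered 0 to 88 as mice were left out, and 30 with DESeq2. With the spread estimated from the groups compared alone, 2497 genes were lower at any fold, of which 2462 were among the main 4695, and 554 past a log2 fold change of 1. With library totals alone 2576 were lower, all among the main 4695. The other alternatives stayed within 1.5 times of each main count. Among named genes 2700 of 2736 values kept their direction and their side of the threshold, 28 lost and 6 gained the call, and the direction turned for H2az1 (0.10, library totals alone) and Xist (-0.16 to 0.25 as mice were left out, the lowest without Myc mouse 31). Of 1792 list counts 144 moved by over 1.5 times, and with the groups compared alone 3 choroid plexus genes rose in place of 19, and 5 pan-neuronal, 1 CA1, 15 postsynaptic and 6 cholesterol synthesis genes fell in place of 13, 4, 27 and 13. The causes were not tested. Groups of 3 and 4 mice and the shared spread limit calls of small changes.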
